A study of Mus musculus with 24 samples.

Results

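The mevalonate arm of cholesterol synthesis is the run of cytosolic enzymes that builds farnesyl diphosphate from acetyl-CoA. It is described here through 7 genes, Acat2, Hmgcs1, Mvk, Pmvk, Mvd, Idi1 and Fdps, taken as the rows of the deposited table whose mouse gene identifier carries those symbols in the GENCODE annotation of GRCm38. All 7 were found, each in a single row, among the 46981 genes of the table. The step between HMG-CoA and mevalonate is not analysed here. The 24 RNA sequencing libraries come from CD4 T cells of mice and form 2 cohorts, each made of 4 groups in triplicate. In the Acly cohort the knockout (KO) libraries carry the genotype CD4-Cre Aclyfl/fl, in which Cre driven by the Cd4 promoter is meant to delete Acly, the gene of ATP citrate lyase, which makes cytosolic acetyl-CoA from citrate. In the Pdha1 cohort the KO genotype is Pdha1fl/fl CD4CreERT2, in which a tamoxifen-dependent Cre is meant to delete Pdha1, the gene of a pyruvate dehydrogenase subunit. Each cohort has its own libraries labelled wild type (WT), with no word on whether these mice carried floxed alleles or Cre. Activated cells were stimulated for 24 h through CD3 and CD28, resting cells received no treatment, and all were kept in medium with 15% serum and 2 mM glutamine. The labels give no age, sex or tamoxifen schedule and do not say whether replicates were separate animals.

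Acetyl-CoA units are joined to acetoacetyl-CoA and then to HMG-CoA, which is reduced to mevalonate. Mevalonate is phosphorylated and decarboxylated to isopentenyl diphosphate, an isoprene unit that is isomerised and condensed to farnesyl diphosphate. That product feeds sterol synthesis and also ubiquinone, dolichol and the prenyl groups that anchor small GTPases in membranes. The genes of the arm are known targets of SREBP2, a transcription factor that is held in the endoplasmic reticulum while sterols are plentiful, and the pathway is known to be induced when T cells leave quiescence.

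Values are in RPM, reads scaled to 1000000 per library, so a level is a share of all RNA counted in its library. Libraries held 388902 to 1087675 recovered counts, and 1 count was worth 0.677 to 2.28 RPM. Acly itself measured 11.3, 10.6 and 15.0 RPM in activated KO libraries, against 104, 111 and 109 RPM in activated WT libraries of its cohort. These activated groups did not overlap. At rest Acly measured 8.0, 1.06 and 5.04 RPM in KO libraries, against 5.80, 9.87 and 8.94 RPM in WT libraries. The resting groups overlapped, so a loss of the Acly transcript was not shown at rest. Pdha1 measured 30.4, 27.4 and 20.0 RPM in the activated libraries labelled KO, against 84.7, 40.8 and 5.35 RPM in those labelled WT. In resting cells of the same cohort it measured 7.33, 0 and 25.9 RPM in libraries labelled KO, against 6.78, 3.14 and 6.01 RPM in those labelled WT, and the groups overlapped. Without the library labelled WT activated 3, the activated WT libraries lay above each activated KO library. Without the library labelled KO resting 3, the resting groups still overlapped. The loss of a floxed stretch need not lower the count of the whole transcript. In the Pdha1 cohort 2 libraries stood apart from their groups in the summed RPM of 10 T cell activation genes. The library labelled WT activated 3 had 135 RPM, against 1651 and 908 RPM in the other WT activated libraries, and the library labelled KO resting 3 had 884 RPM, against 147 and 178 RPM in the other KO resting libraries. Each thus had a sum like those of the other activation state. Whether their labels are right was not tested, and all values of this cohort go by the labels as given. Erythroid and platelet genes summed to 599 to 32768 RPM in that cohort, while they summed to 21.2 to 1204 RPM in the Acly cohort. The 10 T cell identity genes summed to at least 229 RPM in every library, the 8 myeloid genes to at most 104 RPM, and the 9 B cell genes to at most 334 RPM. In resting Pdha1 libraries the B cell sum was 314, 164 and 196 RPM in KO and 256, 99.4 and 324 RPM in WT libraries, beside T cell identity sums of 472, 237 and 1518 RPM in KO and 409, 229 and 626 RPM in WT libraries. In bulk RNA, fewer cells of a type and less RNA per cell cannot be told apart.

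The stretches upstream of 3 of the genes are shown first, because in activated Acly cells Hmgcs1 had a log2 genotype difference of 1.53, against 0.09 for Mvk and 0.71 for Mvd, in the middle of the arm. Each is 200 bases long and ends at the base before the RefSeq transcription start on GRCm38.p6, printed 5′ to 3′ on the strand of the gene. Capitals mark matches on either strand to CCAAT, or ATTGG when read from the other strand, the core of the box that NF-Y binds, and to TCACNCCAC, a sterol regulatory element of the kind that SREBP proteins bind. The coordinates are chr13:119690151-119690350 on the plus strand for Hmgcs1, chr5:114444069-114444268 on the plus strand for Mvk, and chr8:122443423-122443622 on the minus strand for Mvd.
Hmgcs1: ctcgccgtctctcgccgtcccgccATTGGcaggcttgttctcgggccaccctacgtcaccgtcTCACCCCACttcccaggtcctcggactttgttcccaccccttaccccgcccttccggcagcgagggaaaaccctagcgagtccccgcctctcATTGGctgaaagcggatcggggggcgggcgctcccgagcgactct
Mvk: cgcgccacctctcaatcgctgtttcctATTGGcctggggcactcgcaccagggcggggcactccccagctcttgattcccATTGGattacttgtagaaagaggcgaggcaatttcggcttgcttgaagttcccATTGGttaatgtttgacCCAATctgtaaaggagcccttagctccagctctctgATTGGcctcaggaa
Mvd: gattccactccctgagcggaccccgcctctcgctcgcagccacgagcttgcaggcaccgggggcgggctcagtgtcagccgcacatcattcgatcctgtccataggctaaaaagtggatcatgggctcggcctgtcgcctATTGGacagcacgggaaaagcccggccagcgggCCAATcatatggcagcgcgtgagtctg
The RefSeq promoter table held 6 of the 7 genes. The letters TCACNCCAC occurred in 1 of the 6, at positions -137 to -129 of Hmgcs1, and in 1.01% of the 27025 genes in the table with at least 1 promoter of the same length. The same letters with C at N and an A before them, a form whose matches also count for TCACNCCAC, occurred in 0 of the 6 and in 0.0703% of genes. CCAAT occurred in 5 of the 6 genes, against 32.8% of all genes, with 5 matches upstream of Mvk, 2 upstream of Hmgcs1 and 2 upstream of Mvd. The Sp1 core GGGCGG also occurred in 5 of the 6 genes, against 33.7% of genes. Of 9 genes of the sterol arm in the table, 9 held CCAAT and 0 held TCACNCCAC. These are letter matches within the window, not binding sites. The 3 genes shown were picked by their genotype difference, and any part of the letters in it was not tested.

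In activated cells of the Acly cohort, all 7 transcripts of the arm averaged higher in KO than in WT libraries, and Hmgcs1 stood out with a log2 difference of 1.53 ± 0.34 (SE). The 7 log2 differences ran from 0.09 for Mvk to 1.53 for Hmgcs1, with a median of 0.66, against a median of -0.05 over all 31311 genes tested. For 5 of the 7, Acat2, Hmgcs1, Mvd, Idi1 and Fdps, each KO library lay above each WT library, a pattern found in 3.56% of all genes tested. With limma across all genes, 0 of the 7 passed an adjusted p of 0.05, in a comparison where 0.00639% of genes passed, and 3 of the 7 had an unadjusted p under 0.05. Over all 31311 genes, 418 were higher and 669 lower in KO cells at that unadjusted threshold. With edgeR on recovered counts, 1 of the 7, Hmgcs1, was called, where 0.0511% of genes were. The 7 transcripts summed to 608, 486 and 458 RPM in activated KO libraries, against 254, 329 and 263 RPM in activated WT libraries. Hmgcs1 made up 27.7% to 37.2% of that sum in KO libraries and 17.4% to 24.7% in WT libraries.

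**Figure D1:**
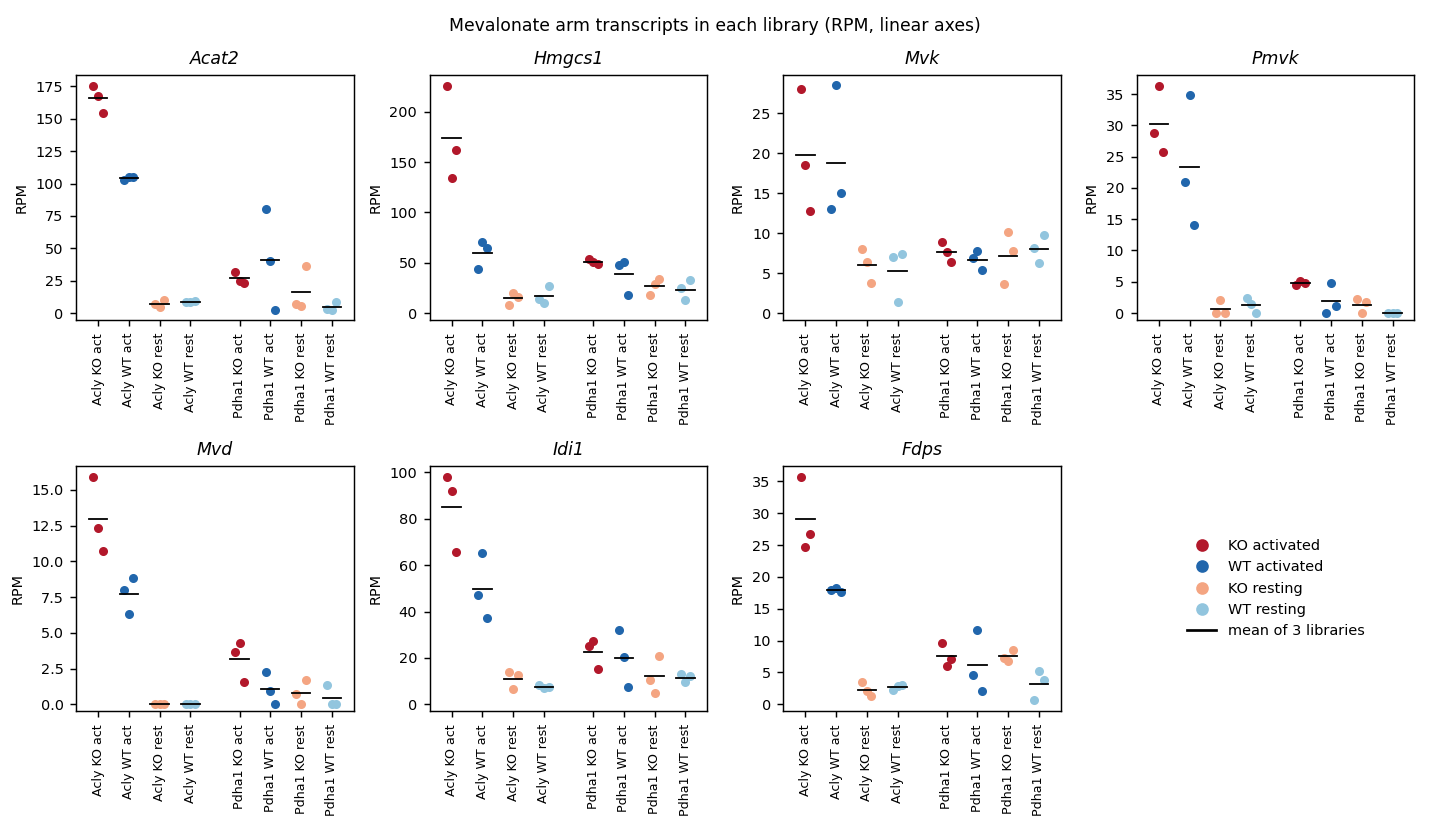
Level of each mevalonate arm transcript in RPM (linear axes from 0) in every library; points are libraries, horizontal bars the mean of 3 libraries, and groups run along the horizontal axis with the Acly cohort on the left of each panel. The 3 activated Acly KO libraries lie above the 3 activated WT libraries for Acat2, Hmgcs1, Mvd, Idi1 and Fdps, and all 6 activated Acly libraries lie above the 6 resting ones for each gene.

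The arm opens with Acat2, cytosolic acetoacetyl-CoA thiolase, which joins acetyl-CoA units (ENSMUSG00000023832, chromosome 17, 12942890 to 12960747, minus strand, GRCm38). Acat2 measured 175, 168 and 154 RPM in activated Acly KO libraries, against 103, 105 and 105 RPM in activated WT libraries. The groups did not overlap, and the WT libraries lay within 3 RPM of each other. The log2 difference was 0.66 ± 0.31, with an adjusted p of 1 by limma and of 0.304 by edgeR. In resting cells Acat2 measured 6.86, 4.26 and 10.1 RPM in Acly KO libraries, against 8.12, 8.46 and 8.94 RPM in WT libraries, and the groups overlapped. A close paralog on the same chromosome, Acat3, is 97.7% identical to Acat2 over 1477 aligned bases, so reads could be split between them. Acat3 averaged 60.7 ± 13.0 RPM (SD, n = 3) in activated Acly KO libraries and 69.0 ± 10.4 RPM in activated WT libraries, with a log2 difference of -0.19. Acat1, the mitochondrial thiolase, had a log2 difference of -0.42 in the same comparison. Neither of these passed the test.

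Hmgcs1, cytosolic HMG-CoA synthase, adds the third acetyl unit and commits carbon to HMG-CoA (ENSMUSG00000093930, chromosome 13, 119690379 to 119708260, plus strand). It measured 226, 135 and 162 RPM in activated Acly KO libraries, against 44.1, 71.0 and 64.8 RPM in activated WT libraries. Each KO library lay above each WT library, and the KO libraries spread more widely. The means were 174 ± 47.0 RPM in KO and 60.0 ± 14.1 RPM in WT cells (SD, n = 3 each). By p-value it ranked 5 among 31311 genes in limma, with an adjusted p of 0.450. The adjusted p was 4.15e-07 by edgeR, 4.98e-05 by limma on only the 6 activated libraries and 0.0136 by limma with no filter on low values. Over 19 alternatives it ran from 4.15e-07 to 1, while the log2 difference stayed between 1.32 and 1.70. In resting cells Hmgcs1 measured 8.0, 20.3 and 16.4 RPM in Acly KO libraries, against 13.9, 9.87 and 26.8 RPM in WT libraries, and the groups overlapped. No near-identical copy of Hmgcs1 was found in the annotation, and its antisense neighbour Gm48342, which overlaps it by 6190 bases, stayed at or under 10.1 RPM in every library.

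Mvk, mevalonate kinase, adds the first phosphate to mevalonate (ENSMUSG00000041939, chromosome 5, 114444269 to 114460591, plus strand). It measured 28.1, 18.6 and 12.8 RPM in activated Acly KO libraries, against 13.0, 28.5 and 15.0 RPM in activated WT libraries. The groups overlapped over most of their ranges, and the log2 difference was 0.09 ± 0.50. In resting cells it measured 8.0, 6.39 and 3.78 RPM in Acly KO libraries, against 6.96, 1.41 and 7.45 RPM in WT libraries. Mvk starts 209 bases from Mmab, an enzyme of cobalamin metabolism read from the other strand. Mmab averaged 36.1 RPM in activated Acly KO and 25.8 RPM in activated WT libraries, and at rest 13.8 RPM in Acly KO, against 15.8 RPM in WT libraries.

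Pmvk, phosphomevalonate kinase, adds the next phosphate (ENSMUSG00000027952, chromosome 3, 89454541 to 89469013, plus strand). It measured 28.8, 36.3 and 25.7 RPM in activated Acly KO libraries, against 21, 34.9 and 14.1 RPM in activated WT libraries. The groups overlapped through WT library 2, and the log2 difference was 0.45 ± 0.65. In resting cells it measured 0, 2.13 and 0 RPM in Acly KO libraries, against 2.32, 1.41 and 0 RPM in WT libraries, which is 2 and 3 counts in all.

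Mvd, mevalonate diphosphate decarboxylase, releases carbon dioxide to give isopentenyl diphosphate (ENSMUSG00000006517, chromosome 8, 122433601 to 122443422, minus strand). It measured 15.9, 12.4 and 10.7 RPM in activated Acly KO libraries, against 7.98, 6.32 and 8.81 RPM in activated WT libraries. The groups did not overlap, and the log2 difference was 0.71 ± 0.71, from 45 counts in KO and 26 counts in WT libraries. Mvd had 0 counts in all 6 resting libraries of the Acly cohort, where the floor of 3 counts allows up to 3.19 to 4.47 RPM, by library. No genotype difference could be computed at rest. Mvd lies inside Gm20388, a gene model on the other strand, which averaged 11.4 RPM in activated Acly KO and 14.4 RPM in activated WT libraries.

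Idi1, isopentenyl diphosphate isomerase, makes the second isoprene building block, dimethylallyl diphosphate (ENSMUSG00000058258, chromosome 13, 8885501 to 8892451, plus strand). It measured 98.2, 91.9 and 65.7 RPM in activated Acly KO libraries, against 47.1, 65.3 and 37.2 RPM in activated WT libraries. KO library 3 lay just above WT library 2, so the groups did not overlap by a margin under 1 RPM. The log2 difference was 0.78 ± 0.34, with an adjusted p of 1 by limma and of 0.149 by edgeR. In resting cells Idi1 measured 13.7, 6.39 and 12.6 RPM in Acly KO libraries, against 8.12, 7.05 and 7.45 RPM in WT libraries. Its 3 copies in the annotation summed to at most 6.42 RPM in any library.

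Fdps, farnesyl diphosphate synthase, closes the arm by condensing isoprene units to farnesyl diphosphate (ENSMUSG00000059743, chromosome 3, 89093588 to 89101959, minus strand). It measured 35.7, 24.8 and 26.8 RPM in activated Acly KO libraries, against 18.0, 18.2 and 17.6 RPM in activated WT libraries. The groups did not overlap, and the WT libraries lay close together. The log2 difference was 0.66 ± 0.47, with an adjusted p of 1 by limma and of 0.680 by edgeR. In resting cells Fdps measured 3.43, 2.13 and 1.26 RPM in Acly KO libraries, against 2.32, 2.82 and 2.98 RPM in WT libraries, from 6 counts in each group. The count of Fdps is uncertain, since it has 6 copies in the annotation, up to 100% identical, and one of them, Gm43738, overlaps it on the same strand. Together the copies averaged 15.2 RPM in activated Acly KO and 13.8 RPM in activated WT libraries.

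**Figure D2:**
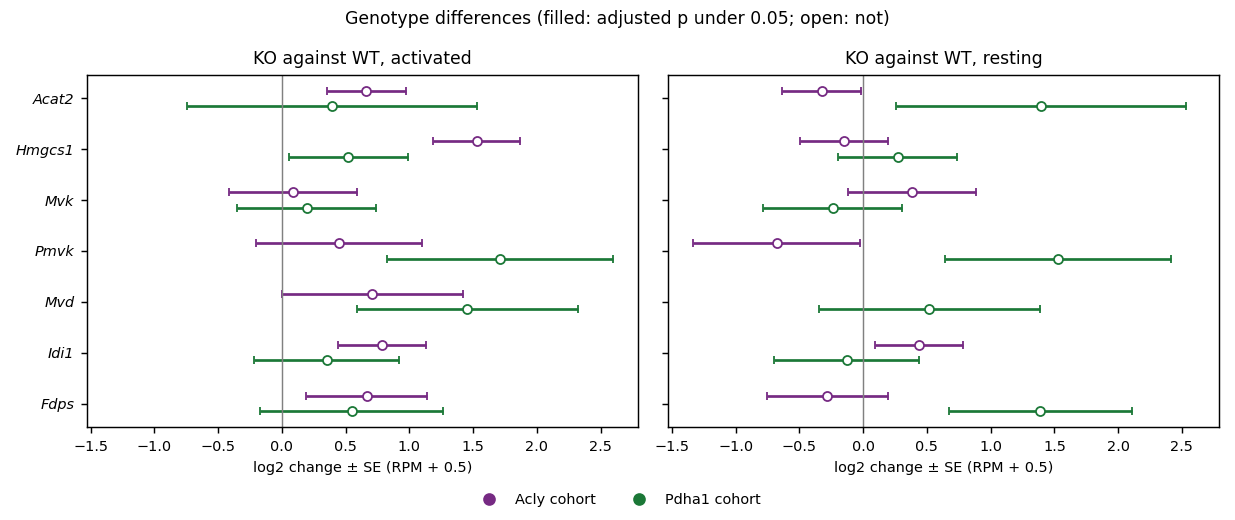
Log2 difference of KO against WT libraries for each transcript, with its standard error from limma on log2(RPM + 0.5), in activated cells (left) and resting cells (right) of the Acly and Pdha1 cohorts. All points are open because none passed an adjusted p of 0.05 by limma; Hmgcs1 in activated Acly cells, at 1.53, lies farthest from 0 relative to its error, and Mvd is not drawn for resting Acly cells, where it had no count.

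Sums of cell marker lists were also compared between the activated groups of the Acly cohort. The 8 CD8 and NK cell genes summed to 53.0, 63.7 and 55.7 RPM in KO libraries, against 45.9, 34 and 29.1 RPM in WT libraries. Eomes made up most of that gap, at 32.6, 37.2 and 20.4 RPM in KO and 18.0, 8.69 and 10.6 RPM in WT libraries, whereas Cd8a stayed under 4 RPM and Ncr1 was at 0 in all but 1 of the 6 libraries. The 10 T cell identity genes summed to 2856, 3328 and 2898 RPM in KO libraries, against 3671, 3862 and 3510 RPM in WT libraries, and the sums did not overlap. Of these genes, 9 had a negative and 1 a positive log2 difference, with a median of -0.38, against -0.05 over all genes. Thy1 alone of the 10 fell by limma and by edgeR. By edgeR 1 of the CD8 and NK genes, Eomes, and 1 of the B cell genes, Cd74, were also called, both higher in KO cells. In this comparison limma called 0.00639% and edgeR 0.0511% of all genes. Of 7 CD8 and NK genes tested, 4 had a positive and 3 a negative log2 difference. Of 9 B cell genes, 7 were positive and 2 negative, down to -1.46, and the 1 with an unadjusted p under 0.05 by limma was lower in KO cells. The 9 B cell genes summed to 72.0, 74.3 and 83.5 RPM in KO libraries, against 72.9, 40.3 and 48.5 RPM in WT libraries, and the sums overlapped. The 10 activation genes summed to 1481, 1246 and 1331 RPM in KO libraries, against 1551, 1667 and 1353 RPM in WT libraries, which overlapped. The part of these differences in the levels of the arm was not tested.

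At rest, the arm was low in both genotypes of the Acly cohort. The 7 transcripts summed to 40.0, 41.5 and 44.2 RPM in KO libraries, against 41.8, 31.0 and 53.7 RPM in WT libraries, and the sums overlapped. Of the 6 transcripts with a count, 2 had a positive and 4 a negative log2 difference, from -0.68 for Pmvk to 0.44 for Idi1. None of the 7 passed by limma or by edgeR, in a comparison where limma called 0% of 31311 genes and edgeR called 0.00319%. By limma 0 of the 7 had an unadjusted p under 0.05, where 841 of all genes were higher and 904 lower at that threshold.

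In the Acly cohort all 7 transcripts were higher in activated than in resting cells in all 9 pairs of libraries, in KO and in WT cells alike, a pattern that 22.6% of all genes showed in KO and 23.1% in WT cells. All 7 rose by limma in both genotypes, where 20.7% of all genes rose in KO cells and 21.4% in WT cells. Receptor background, the summed RPM of 1685 genes of smell and pheromone receptors that T cells are not known to express, was 30101 to 40962 RPM in activated and 95330 to 109575 RPM in resting Acly libraries. Its part in the rise was not tested. The median log2 change of the 7 was 3.57 in KO cells and 2.61 in WT cells, or 3.47 and 2.53 with Mvd at its lower bound, against medians over all genes of -0.67 and -0.61 in the same cells. Scaling in the manner of TMM moved the all-gene medians to -0.38 in KO and -0.29 in WT cells, and the medians of the 7 to 4.08 and 3.06. Of the genes called by limma, 43.7% were higher in activated KO cells and 47.4% in activated WT cells, while edgeR gave 60.4% and 63.5%.

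Acat2, at the entry of the arm, rose by a log2 change of 4.53 ± 0.31 in KO cells and 3.54 ± 0.31 in WT cells. Hmgcs1 rose by 3.57 ± 0.34 in KO cells and 1.89 ± 0.34 in WT cells. Both are log2 changes of RPM from limma, with adjusted p of 1.26e-15 and 1.63e-12 for Acat2, and of 3.51e-11 and 2.24e-05 for Hmgcs1, in KO and in WT cells. In the middle of the arm, Mvk rose by 1.62 ± 0.50 in KO cells and 1.91 ± 0.50 in WT cells, with adjusted p of 0.00756 and 0.00187 by limma. Its KO call did not hold without KO activated library 1, where the log2 change was 1.34 and the adjusted p 0.0624. Pmvk was at 2 counts in all resting KO libraries and 3 counts in all resting WT libraries, so its rise is given as a ratio of counts per depth. That ratio of activated to resting cells was 36.5 in KO cells (95% interval 9.84 to 305, counting error only) and 15.9 in WT cells (5.25 to 78.7). Mvd, with no count at rest, was at least 3.75-fold higher in activated KO cells and at least 1.90-fold higher in activated WT cells, against the floor of 3 counts per library. At the end of the arm, Idi1 rose by 2.96 ± 0.34 in KO cells and 2.61 ± 0.34 in WT cells. Fdps rose by 3.47 ± 0.47 in KO cells and 2.53 ± 0.47 in WT cells, from 6 resting counts in each genotype. Its ratio of counts per depth was 11.8 in KO cells (95% interval 5.23 to 32.9, counting error only) and 6.0 in WT cells (2.60 to 16.9).

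**Figure D3:**
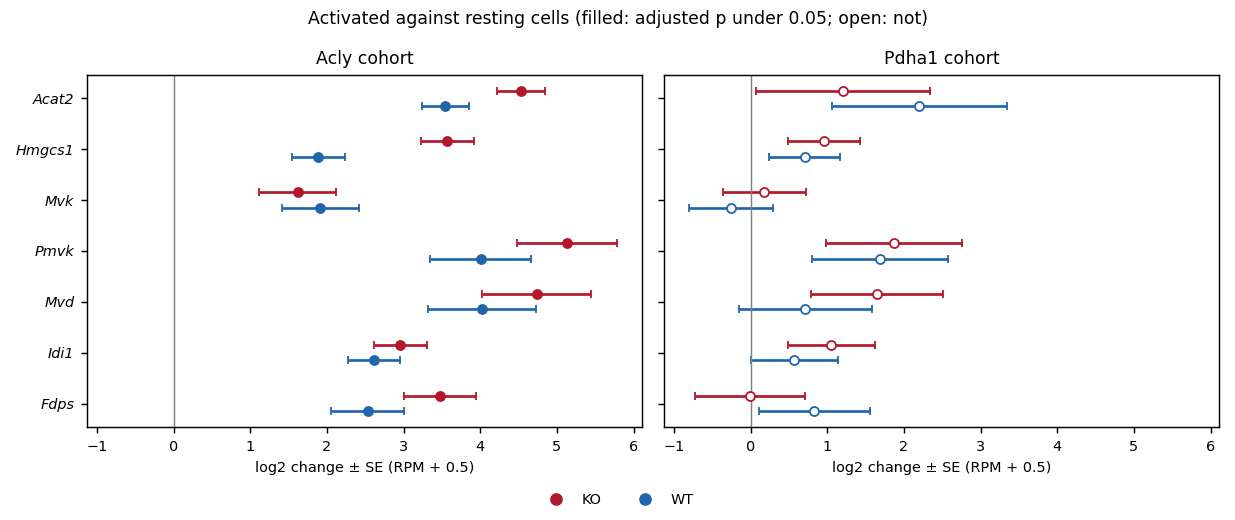
Log2 change of activated against resting cells for each transcript, with its standard error from limma on log2(RPM + 0.5), for KO and WT cells of the Acly cohort (left) and of the Pdha1 cohort (right); filled points passed an adjusted p of 0.05. All 14 points of the Acly cohort are filled and lie between 1.62 and 5.13, whereas none of the Pdha1 cohort is filled. Points of Mvd and Pmvk rest on resting groups at or near 0 counts and depend on the pseudocount. Those of Fdps in the Acly cohort rest on 6 resting counts in each genotype.

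The rise with activation was set against genotype in an interaction term. Mvd, with no count at rest, has no measured resting difference, so its term only repeats the activated one. Of the other 6 transcripts, 5 had a larger log2 change in KO than in WT cells, and Mvk was the exception at -0.30 ± 0.71. The gap was 1.68 ± 0.49 for Hmgcs1, 0.99 ± 0.44 for Acat2 and 1.13 ± 0.92 for Pmvk, on the log2 scale. The value of Pmvk rests on 2 and 3 resting counts and was 1.80 with a pseudocount of 0.1. By limma, 0 of the 7 passed, where 0% of 31311 genes passed, and 2 of the 7, Hmgcs1 and Acat2, had an unadjusted p under 0.05. Over all genes, 527 had a positive and 786 a negative term at that unadjusted threshold. By edgeR, 0 of the 7 passed, where 0.0192% of genes passed, and Hmgcs1 had an adjusted p of 0.349.

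In the Pdha1 cohort no transcript of the arm passed any test on all 12 libraries, and limma and edgeR called 0% of 30357 genes in each of its comparisons. Acat2 measured 31.9, 24.9 and 23.2 RPM in activated libraries labelled KO, against 80.1, 39.8 and 2.14 RPM in those labelled WT. The library labelled WT activated 3 thus held less Acat2 than any activated library of either cohort. In resting cells Acat2 measured 7.33, 5.06 and 36.3 RPM in libraries labelled KO, against 3.39, 2.09 and 8.26 RPM in those labelled WT, with the library labelled KO resting 3 the highest. Hmgcs1 measured 53.6, 50.7 and 49.0 RPM in activated libraries labelled KO, against 48.0, 50.5 and 18.2 RPM in those labelled WT. Apart from the library labelled WT activated 3, the 5 activated libraries lay within 6 RPM of each other for Hmgcs1. At rest it measured 18.4, 28.7 and 33.7 RPM in libraries labelled KO, against 24.5, 12.6 and 32.4 RPM in those labelled WT, and the groups overlapped.

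The kinases and the decarboxylase stayed low in that cohort. Mvk lay between 3.66 and 10.1 RPM in all 12 libraries, with means of 7.65 ± 1.24 RPM in activated KO and 6.64 ± 1.20 RPM in activated WT libraries (SD, n = 3 each). Pmvk measured 4.43, 5.13 and 4.79 RPM in activated libraries labelled KO, against 0, 4.83 and 1.07 RPM in those labelled WT. Its 3 resting WT libraries had no count, and its resting KO libraries measured 2.20, 0 and 1.72 RPM. Mvd measured 3.69, 4.27 and 1.60 RPM in activated libraries labelled KO, against 2.28, 0.966 and 0 RPM in those labelled WT. These Mvd values come from 12 counts in KO and 2 counts in WT libraries, a ratio per depth of 4.02 with a 95% counting interval of 0.895 to 37.0. Idi1 measured 25.2, 27.4 and 15.2 RPM in activated libraries labelled KO, against 31.9, 20.3 and 7.50 RPM in those labelled WT. Fdps measured 9.61, 5.98 and 7.18 RPM in activated libraries labelled KO, against 4.56, 11.6 and 2.14 RPM in those labelled WT. In resting cells Fdps measured 7.33, 6.75 and 8.60 RPM in libraries labelled KO, against 0.677, 5.23 and 3.75 RPM in those labelled WT, and each KO library lay above each WT library. That pattern of no overlap was shown by 1 of the 7 transcripts and by 3.89% of all genes, and the log2 difference of 1.39 ± 0.72 did not pass.

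Activated KO against WT cells of the Pdha1 cohort gave 7 positive log2 differences, from 0.19 for Mvk to 1.71 for Pmvk, with a median of 0.52 against 0.26 over all genes. That of Pmvk rests on 18 counts in KO and 6 counts in WT libraries, lay between 0.87 and 2.57 when a library was left out and was 0.96 by edgeR. Of all 30357 genes tested, 20217 also had a positive difference. Acat2 was positive at 0.39 by limma but -0.55 by edgeR. Its mean was lower in KO, at 26.7 RPM, than in WT libraries, at 40.7 RPM. Without the 2 libraries that stood apart, the difference was -1.08 for Acat2, 0.05 for Hmgcs1, -0.21 for Idi1 and 0.02 for Fdps. Activation in the same cohort gave a log2 change of 1.20 ± 1.14 in KO and 2.20 ± 1.14 in WT cells for Acat2, and of 0.96 ± 0.47 and 0.70 ± 0.47 for Hmgcs1. The 2 libraries stood apart by their activation genes, so leaving either out favours a difference between activated and resting cells. The calls that follow are therefore a description and not independent support for a rise. Without the 2 libraries, limma called 2 of the 7 higher in KO cells, where 7% of all genes were called higher, Acat2 at 2.03 with an adjusted p of 0.0200 and Idi1 at 1.53 with an adjusted p of 0.0474. It called 2 of the 7 higher in WT cells, where 14.9% of all genes were, Acat2 at 3.68 with an adjusted p of 6.41e-05 and Hmgcs1 at 1.17 with an adjusted p of 0.0399. Without the library labelled WT activated 3 alone, Acat2 was called in WT cells, at an adjusted p of 0.0106 by limma, where 9.48% of all genes were called higher. That library also had the lowest sum of activation genes among activated libraries and a receptor background of 105375 RPM, against 26381 and 72243 RPM in the other WT activated libraries. The part of activation state, background and erythroid RNA in these values was not tested.

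**Figure D4:**
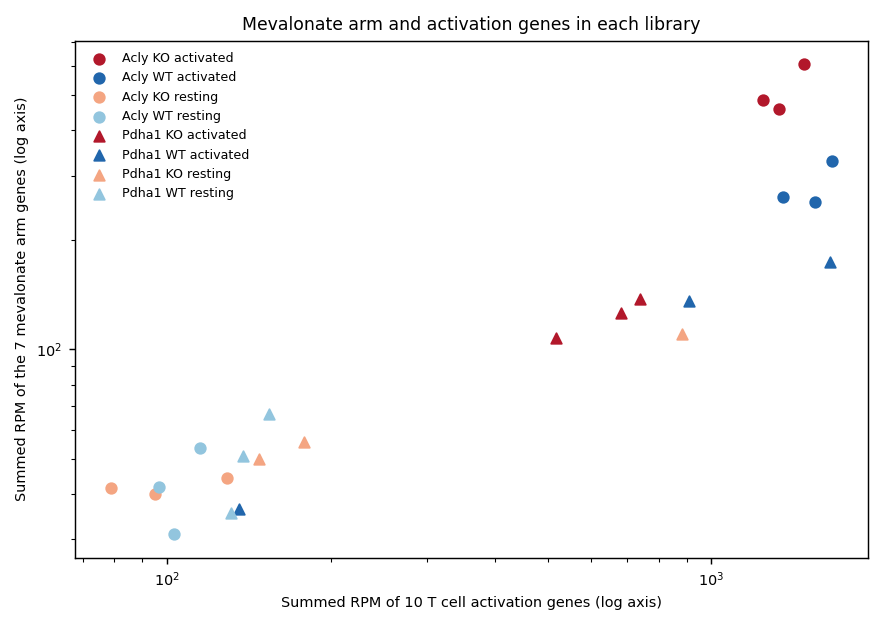
Summed RPM of the 7 mevalonate arm transcripts against the summed RPM of 10 T cell activation genes, both on log axes, with a point for each of the 24 libraries; circles are Acly and triangles Pdha1 libraries. Among activated Acly libraries the KO points, at 458 to 608 RPM, lie above the WT points, at 254 to 329 RPM; the library labelled Pdha1 WT activated 3 lies among the resting libraries, and the library labelled Pdha1 KO resting 3 lies among the activated libraries of its cohort.

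The order of the 8 groups was the same at the top for all 7 transcripts, with activated Acly KO cells first and activated Acly WT cells next. For Mvk and Pmvk those 2 groups overlapped, and for the other 5 they did not. Below them, activated Acly WT cells did not overlap with the next group for any transcript except Hmgcs1, where activated Pdha1 KO cells, at 51.1 ± 2.32 RPM, fell inside the range of activated Acly WT cells, at 60.0 ± 14.1 RPM. All further neighbours in the order overlapped, for each of the 7. The share of all genes with the same order or the same gaps was not counted. Neither is therefore shown to be particular to the arm. The cohorts differ in deletion and in their WT libraries, so a level set across them cannot be told apart from a cohort difference. The genotype difference in activated cells was compared between cohorts in a fit of all 24 libraries. The Acly difference minus the Pdha1 difference was 1.00 ± 0.61 for Hmgcs1 and ran from -1.26 for Pmvk to that value. By limma and by edgeR, 0 of the 7 passed, where each called 0% of 35290 genes, and 0 of the 7 had an unadjusted p under 0.05 by limma. Over all genes, 204 had a positive and 937 a negative value at that unadjusted threshold.

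Beyond farnesyl diphosphate, the genes of the sterol arm had a similar genotype difference in activated Acly cells. Of 12 sterol arm genes, 10 had a positive log2 difference, with a median of 0.67, and none passed by limma or by edgeR. Lss, the cyclase that makes lanosterol, measured 62.5, 57.7 and 48.4 RPM in KO libraries, against 26.0, 45.3 and 18.5 RPM in WT libraries. Cyp51, lanosterol demethylase, measured 175, 159 and 151 RPM in KO libraries, against 89.7, 99.3 and 80.1 RPM in WT libraries. Msmo1, a methylsterol oxidase, measured 79.5, 92.8 and 84.2 RPM in KO libraries, against 55.2, 54.9 and 52.3 RPM in WT libraries. These 3 have the smallest p of the list. In 8 of the 12 each KO library lay above each WT library, against 3.56% of all genes. The branches that use farnesyl diphosphate for prenylation, dolichol and ubiquinone had a median log2 difference of -0.10 over 11 genes, with 4 positive and none called. The 14 genes of sterol sensing and uptake had a median of 0.06, with 9 positive and none called. Among them Srebf2, the gene of SREBP2, averaged 68.2 ± 9.23 RPM in activated Acly KO and 65.7 ± 9.32 RPM in activated WT libraries (SD, n = 3 each).

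With activation of Acly cohort cells, 9 of the 12 sterol arm genes rose in KO cells and 8 rose in WT cells, by limma, where 20.7% of all genes rose in KO and 21.4% in WT cells. By edgeR 11 rose in KO and 9 in WT cells, where edgeR called 7989 of 31311 genes higher in KO and 8002 in WT cells. Cyp51 rose by a log2 change of 5.13 in KO and 4.13 in WT cells, and Fdft1, squalene synthase, by 5.57 and 3.15. Of the 11 branch genes, 5 rose in KO and 5 in WT cells by limma, and 7 and 7 by edgeR, among them Coq2, a ubiquinone prenyltransferase, by 4.04 and 5.42. Of the 14 sensing and uptake genes, 6 rose and 3 fell in KO cells, and likewise 6 rose and 3 fell in WT cells, where 26.7% of all genes fell in KO and 23.8% in WT cells. By edgeR 6 rose in KO and 7 in WT cells, and 1 fell in each, where edgeR called 5232 of all genes lower in KO and 4607 in WT cells. Srebf2 rose by 1.62 in KO and 1.54 in WT cells. In the Pdha1 cohort none of these genes was called on all 12 libraries.

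The profiles of the 7 transcripts over the 8 groups were compared as mean absolute differences of log2 group means, each centred on its own gene. The closest pair was Hmgcs1 and Idi1, at 0.28, and the farthest was Mvk and Pmvk, at 1.29. Outside the arm, over 11613 genes with a mean of at least 10 RPM, the profiles near that of Hmgcs1 included those of Adam10 at 0.27, Ifi35 at 0.29, and Ccdc50 and Mphosph10, both at 0.32. The median gene lay 1.09 from Hmgcs1. The profiles nearest to the mean of the 7 were those of Bcl2l1 at 0.16, Map1s and Txlna, both at 0.18, Hdlbp at 0.20 and Gm5069 at 0.20, against 1.30 for the median gene. All these profiles share the same 24 libraries and are given as a description.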

How the data were processed

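The authors deposited a table of RPM values, reads scaled to 1000000 per library, for 46981 mouse gene identifiers in 24 libraries, with builds GRCm38 and mm10 named in the submitters' processing notes. Per the labels' protocols, total RNA went through a stranded kit with ribosomal and globin RNA removal and was read over 75 bp. Aligner and counter were not given in the sources used here. All 678237 values above 0 came out as whole counts, within 0.01, after a correction for collisions among 4096 identifiers was undone. The labelled kit names no such identifiers, so which part of each transcript was read is unknown. Levels of different genes are therefore not on a known common scale. This also limits the sums over genes and the share of Hmgcs1 in the sum of the arm. Symbols came from GENCODE M21, which matched 46206 identifiers; the other 775 stayed without a symbol.

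Differences were tested with limma 3.58.1 (trend, robust) in R 4.3.3 on log2(RPM + 0.5), which understates the changes of low genes, for genes that reached 1 RPM in 3 or more libraries. Each cohort's 12 libraries were fitted together, and all 24 for the comparison of cohorts. P-values were adjusted by Benjamini-Hochberg over all genes, with a threshold of 0.05. They measure the spread between these libraries, which may be technical. Alternatives were pseudocounts of 0.1 and 1, no filter, scaling in the manner of TMM, only the groups compared, a replicate block and leaving out each library or the 2 libraries that stood apart. Those 2 libraries were singled out from the values of these data. Added after seeing the data was edgeR 4.0.16 on the collision-corrected counts, rounded to whole numbers. The limma and edgeR fits were run on simulated counts for activated Acly KO against WT cells only. Genes of low level were not among those changed, and the other comparisons were not simulated.

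A replicate number was taken to pair libraries where all 3 same-numbered pairs deviated together with a correlation over 0.1. That held for activated Acly KO and WT (0.105 to 0.236), activated and resting Acly WT (0.114 to 0.278) and activated Pdha1 KO and WT libraries (0.192 to 0.608), and in no other comparison. Pairs of different numbers reached 0.109, 0.107 and 0.197 in these comparisons. In activated Acly and activated Pdha1 libraries this was above the lowest same-numbered pair, so the rule does not establish a pairing there. Copies were sought with blastn 2.17.0 at 90% identity over 150 bases. Promoters are those of RefSeq on GRCm38.p6. The 7 genes, the other lists and the tests were chosen with earlier results of these data known. The text names all 7 genes, Acly and Pdha1, up to 3 genes of the smallest p or called per other list, overlapping or copied genes and the 5 nearest profiles, of which not all are reported here; Acat3, Acat1, Cd8a, Ncr1, Eomes, Thy1, Cd74 and Srebf2 were named after their values were seen.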

Additional observations from a re-analysis of the deposited data

How the results depend on the processing

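The 14 activation calls of the Acly cohort kept their direction under all alternatives and passed the threshold in each, except that of Mvk in KO cells without KO activated library 1, so leaving out a library gave 6 to 7 calls in KO cells. In activated Acly KO against WT cells, 1 of the 7 genes in place of 0, Hmgcs1, was called with no filter, on only the groups compared and by edgeR; the cause was not tested. With the replicate block, Hmgcs1 had an adjusted p of 0.278 by limma and 0 of the 7 were called. Same-numbered libraries were not clearly set apart from other pairs there. Calls over all genes went to 5 in place of 2 with the block, to 16 by edgeR and to 39 on only the groups compared. The block changed no call among the 7 in any comparison. In the Pdha1 cohort, calls came to 2 in KO and 2 in WT activation without the 2 libraries that stood apart, in fits that called 2075 and 7825 of 29032 genes, and to 0 to 1 in WT activation when a single library was left out. The 2 libraries stood apart by their activation genes, so the calls without them are a description only.

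Signs turned for 19 of 62 uncalled log2 values and for none of the 14 called. Leaving out a library gave, for Acly KO against WT, -0.19 to 0.42 for Mvk in activated cells, and -0.46 to 0.23 for Hmgcs1, -0.57 to 0.0090 for Fdps and -0.29 to 0.74 for Mvk in resting cells. It gave -0.65 to 0.38 for Mvk in the Acly interaction. For Pdha1 KO against WT it gave -1.08 to 1.38 for Acat2 and -0.21 to 0.80 for Idi1 in activated cells, and -0.53 to 0.15 for Mvk, -0.61 to 0.35 for Idi1 and -0.11 to 0.56 for Hmgcs1 in resting cells. For Pdha1 KO activation it gave -0.19 to 0.14 for Fdps and -0.21 to 0.47 for Mvk, and in the Pdha1 interaction -0.66 to 1.05 for Pmvk, -0.22 to 0.63 for Hmgcs1 and -0.083 to 0.97 for Idi1. For the Acly minus the Pdha1 difference it gave -0.72 to 1.75 for Acat2, -0.46 to 0.64 for Fdps, -0.39 to 0.23 for Mvk and -0.012 to 1.00 for Idi1. Without the 2 libraries, the values that turned were -1.08 for Acat2 and -0.21 for Idi1 in activated Pdha1 KO against WT cells, 0.078 for Fdps in Pdha1 KO activation, -0.037 for Hmgcs1 in the Pdha1 interaction and 0.029 for Mvk between cohorts. By edgeR they were -0.55 for Acat2 in activated and 0.16 for Idi1 in resting Pdha1 KO against WT cells, 0.067 for Fdps in Pdha1 KO activation and -2.88 for Pmvk in the Pdha1 interaction. Scaling in the manner of TMM gave 0.078 for Fdps, and a pseudocount of 0.1 gave -0.35 for Pmvk, in those comparisons. Depth limits Mvd and Pmvk, whose resting groups hold 0 to 3 and 0 to 5 counts in all, and also Fdps, with 6 counts in each resting Acly group.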
